A study of Mus musculus with 6 samples.

Results

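The 10 genes of fatty acid uptake and lipid droplet storage were taken from the deposited expression table by symbol, and all 10 were found among its 21367 genes, each on 1 row. They were *Cd36*, *Slc27a2*, *Fabp1*, *Fabp3* and *Fabp4*, which act in fatty acid uptake and transport, *Plin2*, *Plin4* and *Plin5*, which coat lipid droplets, *Pnpla2*, which releases fatty acids from them, and *Angptl4*, which acts on lipoprotein lipase. RNA came from the left kidneys of 3 *Ptpn6*+/mev mice and 3 wild-type littermates, 7 weeks old, with 1 library per mouse. *Ptpn6*+/mev mice, on a C57BL/6 background, carry 1 copy of the viable motheaten allele, a splice-site mutation in the gene for the phosphatase SHP-1. In every mouse of both groups the right kidney had been removed and the left pedicle clamped for 34 min, and the kidney was taken after 24 h of reperfusion (ischemia-reperfusion injury, IRI). Kidneys without IRI were not analysed here, so each value below compares the genotypes in injured kidney only. The 10 genes were selected on their differences in count and FPKM between *Ptpn6*+/mev and wild-type mice in these same libraries. Those differences are therefore given as a description, and no test is read from them.

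Reabsorption in the proximal tubule is powered largely by mitochondrial oxidation of fatty acids. Long-chain fatty acids enter cells through CD36 or with the help of transport proteins of the SLC27 family, which also activate them to acyl-CoA, and cytosolic fatty acid binding proteins (FABPs) carry them. What is not oxidised is stored as triglyceride in lipid droplets, whose surface is covered by perilipins and whose triglyceride is first cut by adipose triglyceride lipase, encoded by *Pnpla2*. Many genes of this group are targets of the nuclear receptors PPARα, PPARδ and PPARγ. In the deposited annotation, 9 of the 10 genes were listed in the KEGG PPAR signaling pathway, all but *Pnpla2*, against 0.398% of all genes in the table. The GO term for the lipid droplet was listed for 4 of the 10.

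PPARs bind DNA with RXR at a direct repeat of AGGTCA spaced by 1 base, so the promoters were searched for AGGTCA alone, for AGGTCANAGGTCA and for the relaxed AGGNCANAGGNCA, on both strands. RefSeq windows of 300 bases (GRCm38.p6, 250 before to 50 after the start) were matched for 8 genes in 9 windows; *Fabp4* and *Angptl4* had no entry. AGGTCA was found for 5 of the 8 genes (*Cd36*, *Fabp1*, *Plin2*, *Plin5* and *Slc27a2*), against 18.1% of the 27025 genes with a window. The exact repeat was found in none of the 9 windows and in 13 of all 32851. The relaxed repeat was found for *Fabp1* alone among the 8, against 0.451% of all genes. It was read as AGGCCATAGGTCA on the strand opposite to the gene and lay at chr6:71199812-71199824, 67 bases before the RefSeq start. The relaxed repeat in *Fabp1* contains 1 of the AGGTCA matches, so the motifs overlap. The sequences upstream of *Fabp1*, *Cd36*, *Plin2* and *Plin5* are shown because these 4 genes had non-overlapping levels in the groups. Each is written in the direction of its gene, 5′ to 3′, without annotated exon bases, and capitals mark the matches to AGGTCA and, in *Fabp1*, to the relaxed repeat. They are *Fabp1*, chr6:71199629-71199826, plus strand; *Cd36*, chr5:17835897-17836146, minus strand; *Plin2*, chr4:86670061-86670309, minus strand; and the farther upstream of the pair of *Plin5* windows, chr17:56117597-56117798, minus strand.
Fabp1: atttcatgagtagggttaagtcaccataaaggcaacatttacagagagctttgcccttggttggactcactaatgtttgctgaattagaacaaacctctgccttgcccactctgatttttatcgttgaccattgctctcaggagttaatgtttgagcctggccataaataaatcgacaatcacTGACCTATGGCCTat
Cd36: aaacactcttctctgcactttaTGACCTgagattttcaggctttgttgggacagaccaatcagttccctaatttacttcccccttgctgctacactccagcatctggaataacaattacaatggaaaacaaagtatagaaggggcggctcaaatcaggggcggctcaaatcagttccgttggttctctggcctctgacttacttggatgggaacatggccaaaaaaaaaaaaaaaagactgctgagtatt
Plin2: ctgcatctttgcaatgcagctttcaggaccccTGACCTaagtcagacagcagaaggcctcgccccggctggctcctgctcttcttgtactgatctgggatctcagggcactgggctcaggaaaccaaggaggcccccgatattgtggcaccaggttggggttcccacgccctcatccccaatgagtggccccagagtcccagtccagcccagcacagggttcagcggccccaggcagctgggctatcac
Plin5: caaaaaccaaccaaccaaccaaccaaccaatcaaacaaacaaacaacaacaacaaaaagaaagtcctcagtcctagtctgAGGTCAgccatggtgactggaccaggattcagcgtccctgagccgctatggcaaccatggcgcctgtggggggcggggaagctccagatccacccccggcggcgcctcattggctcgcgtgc
The *Cd36* window lies inside the annotated span of the gene, which has 6 transcripts with 6 start sites. A match is a string of letters, not a bound site, and binding was not measured.

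The libraries held 10271590 to 12361745 counts each. Within a group, any pair of libraries had a chi-square per degree of freedom of 6.48 to 45.3, well above counting noise, so none was treated as a repeat of another. *Ptpn6* itself had FPKM values (fragments per length of transcript, adjusted for library size) of 11.85 to 14.7 in *Ptpn6*+/mev and 10.9 to 17.5 in wild-type mice, and the mutation need not lower its RNA. Wild-type replicate 2 stood apart: its TMM factor, edgeR's scaling for library composition, was 0.929 against 0.994 to 1.03. The summed FPKM of 12 endothelial markers was 176 in that mouse and 373 to 425 in the other 5. That of 11 proximal tubule markers was 666 to 823 in *Ptpn6*+/mev and 939 to 1117 in wild-type mice, and 10 of the 11 had a log2 fold change below 0, with 1 of them, *Slc22a8*, passing FDR 0.05 (Benjamini-Hochberg adjusted p of the edgeR quasi-likelihood F-test). The exact test and DESeq2 each called 5 of the 11, all lower, against 1.78% and 1.88% of all tested genes called lower. Leaving out wild-type replicate 2 brought the quasi-likelihood calls to 6, all lower, against 1.09% of genes called lower. It moved the median of the 11 from -0.46 to -0.59. In whole kidney, fewer cells of a type and less RNA per cell cannot be told apart. Adipocyte markers differed between mice within both groups and are given beside *Fabp4* and *Plin4*. Among the other lists, the summed FPKM of macrophage markers was 218 to 341 in *Ptpn6*+/mev and 177 to 308 in wild-type mice, of blood 589 to 1633 and 502 to 1298, and of distal nephron 2103 to 3008 and 2544 to 2966. Hepatocyte markers summed to 112 to 128 and 130 to 215, with *Ahsg* at 0 in every mouse. Of the 6 tested, 5 had a log2 fold change below 0, and the median was -0.62 (-0.28 without wild-type replicate 2). The exact test and DESeq2 each called 2, both lower, where 1.78% and 1.88% of all tested genes were called lower. *Alb*, *Fgb* and *Cyp2e1* were lower without overlap, at -1.49, -0.94 and -0.78, as were 6.38% of all tested genes. The part of these cell types in the members' differences was not tested. Striated muscle markers summed to 11.6 to 14.2 and 6.55 to 14.4, with *Myh4* and *Tnnt3* at 0, and tubular injury markers to 26980 to 33040 and 30280 to 39030. *Spp1*, the osteopontin gene, made up most of the injury sum, at 20881 to 25507 and 24406 to 32920, and it had a log2 fold change of -0.38. Of the 10 injury markers 7 had a log2 fold change above 0, with a median of 0.13 over all 10, or 0.30 with wild-type replicate 2 left out. None was called by the quasi-likelihood test, 1 by the exact test, 2 by DESeq2 and 2 by the fit without that mouse, all higher. In either direction these called 0.138%, 2.99%, 2.98% and 1.8% of all genes tested. At an unadjusted p under 0.05 in the quasi-likelihood test there were 4 higher and 1 lower, against 5.53% and 6.71% of genes. *Vcam1* (1.05), *Krt18* (0.55), *Krt8* (0.28) and *Havcr1* (0.27) were above the wild-type range in all 3 *Ptpn6*+/mev mice, as were 14% of all tested genes.

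For *Cd36*, *Plin2*, *Plin5* and *Fabp1*, all 3 *Ptpn6*+/mev mice lay below the lowest wild-type mouse, and the other 6 genes overlapped between the groups. Of these 4 genes 3 passed the filter on low counts, as did 9 of the 10 members, and among all 13036 genes that passed it 6.38% were lower in this non-overlapping way. The edgeR quasi-likelihood F-test, fitted across all tested genes, called none of the 9 members at FDR 0.05, against 0.138% of genes tested. In the same test 3 of the 9 had an unadjusted p below 0.05, all of them lower, against 6.71% of genes. Without the filter it again called no member, against 0.315% of genes. edgeR's exact test and DESeq2's Wald test each called 2 members, *Cd36* and *Plin2*, against 2.99% and 2.98% of genes. With wild-type replicate 2 left out the quasi-likelihood test called the same 2, against 1.8% of genes, and without wild-type replicate 3 it called *Cd36* and *Fabp1*, against 0.508%. Since these members were selected on the same comparison, nothing is read from the counts. The median log2 fold change of the 9 was -0.46, while that of all tested genes was 0.00. It was -0.51 for all 10 in the fit without the filter, which brings in *Fabp1*, and -0.36 for the 9 without wild-type replicate 2.

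**Figure D1:**
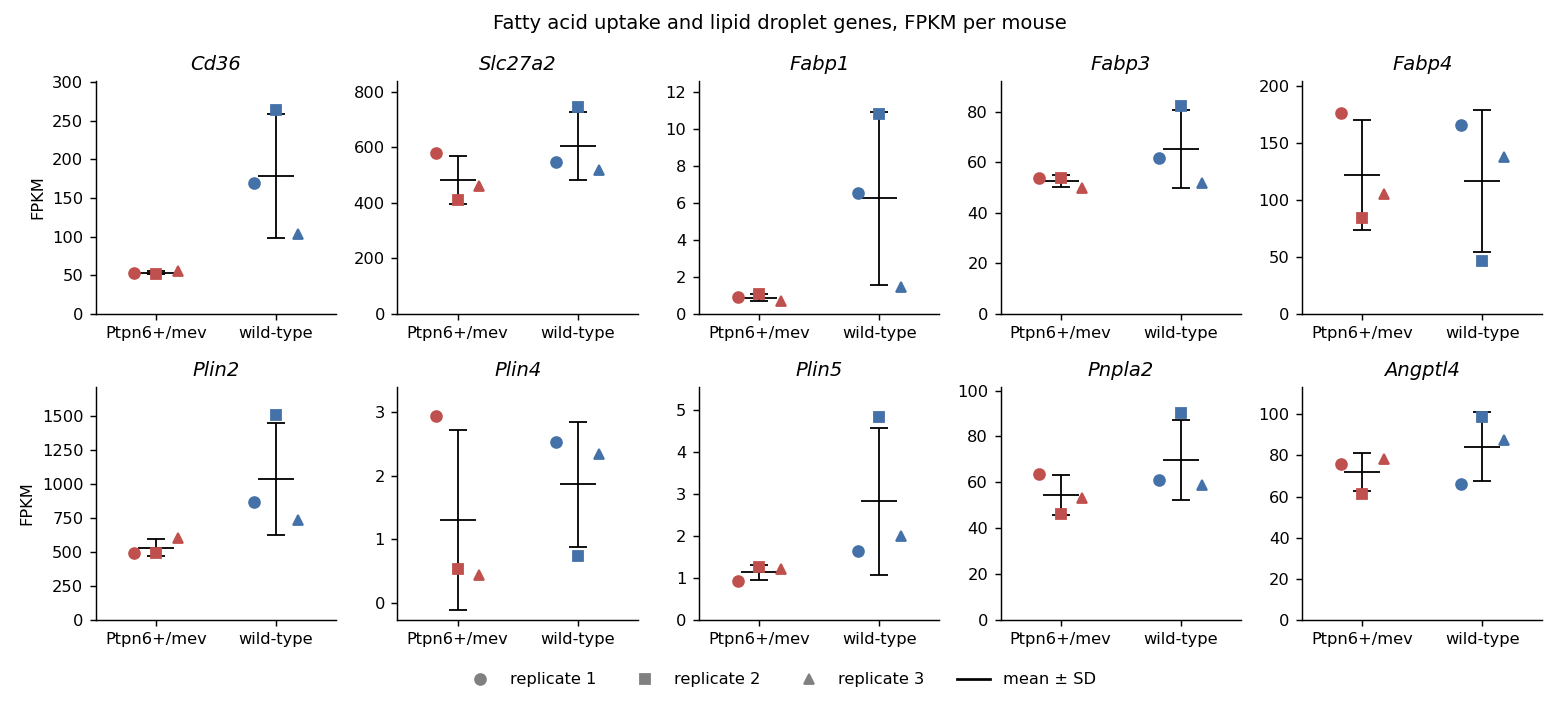
FPKM of the 10 genes in each mouse, with 1 panel per gene and a linear axis; points are mice (shape gives the replicate number) and the black line and bar are the mean ± SD (n = 3). *Cd36*, *Fabp1*, *Plin2* and *Plin5* do not overlap between the groups, and wild-type replicate 2 (blue square) is the highest mouse in 8 panels.

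*Cd36* (ENSMUSG00000002944, chr5:17781690-17888801, minus strand) encodes a scavenger receptor that takes up long-chain fatty acids. *Ptpn6*+/mev replicates 1 to 3 had FPKM values of 52.5, 51.6 and 55.1, and those of wild-type replicates 1 to 3 were 169, 264 and 103. The *Ptpn6*+/mev mice lay close together, with a coefficient of variation of 3.5%, while the wild-type mice varied by 45.1%, and the lowest wild-type mouse was above all 3 *Ptpn6*+/mev mice. The log2 fold change from counts was -1.98 (standard error 0.42), and it was -1.31 without wild-type replicate 2. The ratio of the mean FPKM was 0.297.

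The deposited counts and FPKM of *Cd36* did not rise in proportion. Dividing the count by the FPKM and by the library total gives the transcript length that the authors' processing assigned to the gene. For *Cd36* this length was 1381, 1482 and 1372 bases in the *Ptpn6*+/mev mice, taken in order of replicate, and 1328, 1789 and 1312 bases in the wild-type mice, so that wild-type replicate 2 had the longest. For *Fabp4* it was 899 and for *Fabp3* 826 in all 6 libraries. Wild-type mice had 2425, 5179 and 1672 counts of *Cd36*, so wild-type replicate 2 stood farther from the others in counts than in FPKM. Both scales left the groups of *Cd36* apart.

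*Slc27a2* (ENSMUSG00000027359, chr2:126552407-126588243, plus strand) encodes FATP2, an acyl-CoA synthetase and fatty acid transporter of the proximal tubule. Its FPKM was 579, 409 and 458 in *Ptpn6*+/mev mice and 547, 745 and 518 in wild-type mice. The highest *Ptpn6*+/mev mouse lay between wild-type replicates 1 and 2, so the groups overlapped. In edgeR its log2 fold change was -0.40 (standard error 0.19), and -0.19 without wild-type replicate 2. *Slc27a2* made up 91.2% to 94.0% of the summed FPKM of the 6 SLC27 genes in *Ptpn6*+/mev mice and 92.1% to 94.0% in wild-type mice, and *Slc27a4* came next with 3.33% to 5.61% over all mice. A lincRNA gene, *Gm26697*, overlaps *Slc27a2* by 1256 bases on the opposite strand, and as the library kit did not mark strand, reads of that stretch cannot be told apart.

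Set against *Slc27a2* in the same mouse, *Cd36* was still apart. The ratio of their FPKM was 0.0907, 0.126 and 0.120 in *Ptpn6*+/mev mice and 0.309, 0.354 and 0.199 in wild-type mice. These ratios within a mouse were chosen after the values were seen and use the same comparison, so they describe the same difference. In all 3 *Ptpn6*+/mev mice *Cd36* was lower relative to *Slc27a2* than in any of the wild-type animals.

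*Fabp1* (ENSMUSG00000054422, chr6:71199827-71205023, plus strand), the liver-type FABP, was scarce. Its counts were 5, 6 and 4 in *Ptpn6*+/mev mice and 39, 66 and 10 in wild-type mice, and its FPKM was 0.88, 1.04 and 0.67 against 6.52, 10.8 and 1.46. The 3 *Ptpn6*+/mev mice were below the lowest wild-type mouse, but at 10 counts wild-type replicate 3 was nearer to them than to its own group. *Fabp1* did not pass the filter on low counts. Fitted with no filter, it had a log2 fold change of -2.91 (standard error 0.72). Counting error is large at this depth, so the size of the fold is poorly fixed.

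*Fabp3* (ENSMUSG00000028773, chr4:130308595-130315463, plus strand), the heart-type FABP, had an FPKM of 53.9, 53.8 and 49.7 in *Ptpn6*+/mev mice and 61.5, 82.1 and 51.8 in wild-type mice. The groups overlapped because wild-type replicate 3 lay among the *Ptpn6*+/mev mice. From counts, the log2 fold change was -0.39 (standard error 0.19), and -0.15 without wild-type replicate 2, the highest mouse. *Fabp3* overlaps 2 genes on the opposite strand at its ends, *Gm10570* and *Zcchc17*.

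*Fabp4* (ENSMUSG00000062515, chr3:10204088-10208576, minus strand), the adipocyte FABP, which capillary endothelium and macrophages also make, did not follow the genotype. Its FPKM was 176, 84.2 and 105 in *Ptpn6*+/mev mice and 166, 46.0 and 137 in wild-type mice. The highest mouse was *Ptpn6*+/mev replicate 1 and the lowest wild-type replicate 2, and the log2 fold change was 0.01 (standard error 0.43). Its sign changed with the mice, from -0.36 without wild-type replicate 2 to 0.34 without wild-type replicate 1.

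The FABPs took different shares in different mice. Of their summed FPKM, *Fabp4* made up 55.0% to 71.8% in *Ptpn6*+/mev mice and 32.1% to 67.7% in wild-type mice, and *Fabp3* 22.0% to 35.1% and 24.8% to 57.2%. *Fabp1* made up 0.359% to 0.680% in *Ptpn6*+/mev mice and 0.721% to 7.55% in wild-type mice. *Fabp7* ran the other way from *Fabp1*, at 5.07, 4.67 and 6.80 FPKM against 3.10, 0.79 and 3.51, or 2.07% to 3.96% of the sum against 0.551% to 1.73%, with no overlap. In FPKM, 14% of all tested genes were higher without overlap. *Fabp5* was the other FABP above 0, while *Fabp2*, *Fabp6*, *Fabp9* and *Fabp12* were listed at 0 in every mouse.

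*Plin2* (ENSMUSG00000028494, chr4:86648386-86670060, minus strand), the main perilipin of cells other than adipocytes, had the highest mean FPKM of the 10 genes, although *Slc27a2* was above it in *Ptpn6*+/mev replicate 1. Its FPKM was 492, 495 and 602 in *Ptpn6*+/mev mice and 866, 1506 and 738 in wild-type mice. All 3 *Ptpn6*+/mev mice were below the lowest wild-type mouse, and the ratio of the means was 0.511. The log2 fold change was -1.05 (standard error 0.28), and -0.62 without wild-type replicate 2.

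*Plin2* made up nearly all perilipin RNA. Its share of the summed FPKM of the 5 perilipins was 89.9% to 91.6% in *Ptpn6*+/mev mice and 93.1% to 96.9% in wild-type mice, so the shares did not overlap. *Plin3*, a perilipin that also stays in the cytosol, took most of the rest, with 8.18% to 9.73% and 2.76% to 6.06%. *Plin3* itself stood at 51.4 ± 3.90 FPKM (SD, n = 3) against 46.8 ± 3.39 (SD, n = 3), with overlapping groups.

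**Figure D2:**
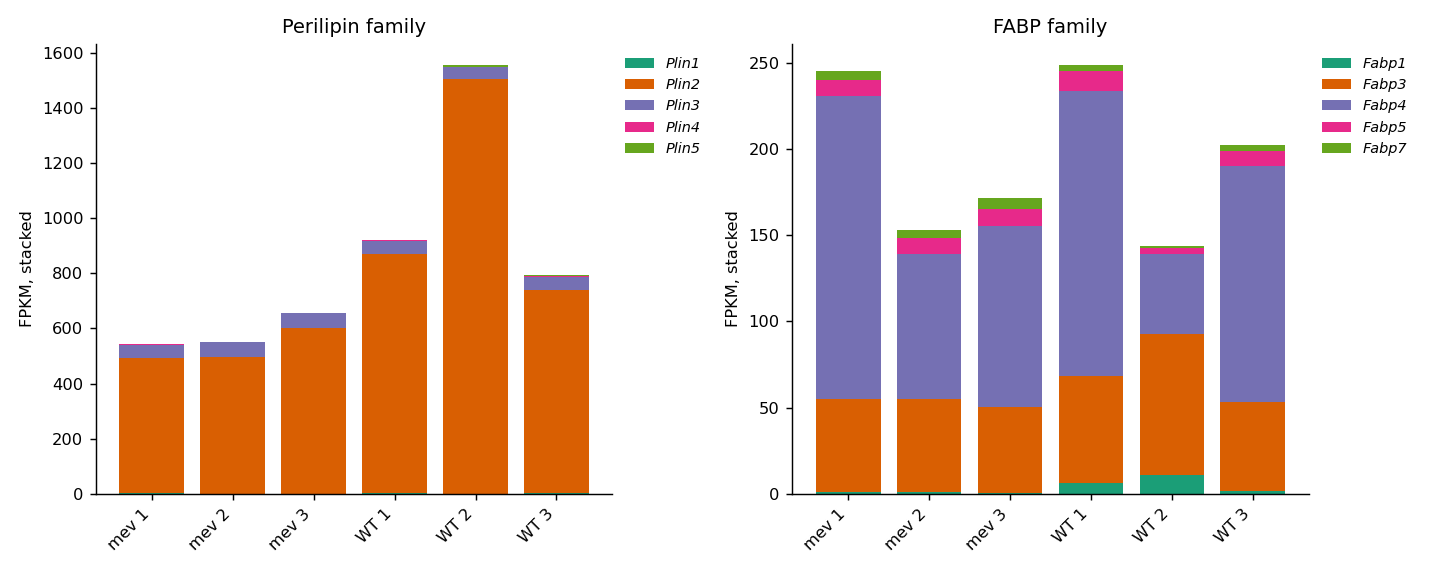
Stacked FPKM of the perilipins (left) and of the FABPs above 0 (right) in each mouse, with mev for *Ptpn6*+/mev and WT for wild-type. *Plin2* fills most of every perilipin bar, and *Fabp4* and *Fabp3* most of every FABP bar.

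*Plin5* (ENSMUSG00000011305, chr17:56111601-56117596, minus strand), the perilipin of oxidative tissue that links droplets to mitochondria, was near the lower end of detection. Its FPKM was 0.93, 1.26 and 1.21 in *Ptpn6*+/mev mice and 1.63, 4.85 and 1.99 in wild-type mice, from counts of 19, 26 and 26 against 35, 106 and 49. The groups did not overlap, and wild-type replicate 2 held more than the other wild-type mice together. Its log2 fold change was -1.40 (standard error 0.47), and -0.71 without that mouse.

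*Plin4* (ENSMUSG00000002831, chr17:56100591-56109803, minus strand), a perilipin of adipocytes and muscle, fell into high and low mice within each group. Its FPKM was 2.93, 0.53 and 0.43 in *Ptpn6*+/mev mice and 2.52, 0.73 and 2.34 in wild-type mice. The high mice were *Ptpn6*+/mev replicate 1 and wild-type replicates 1 and 3. The log2 fold change was -0.57 (standard error 0.73), and it ran from -1.99 without *Ptpn6*+/mev replicate 1 to -0.16 without *Ptpn6*+/mev replicate 3.

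The same 3 mice carried adipocyte markers. *Adipoq*, the adiponectin gene, had an FPKM of 5.19, 0 and 0 in *Ptpn6*+/mev mice and 4.36, 0.07 and 7.30 in wild-type mice. *Cfd*, which encodes adipsin, had 51.0, 0 and 0.32 against 71.6, 1.11 and 57.0, and *Plin1*, the perilipin of adipocytes, 2.62, 0 and 0 against 3.21, 0.14 and 2.30. *Retn*, the resistin gene, was at 0 in the other 3 mice and at 3.44 to 4.97 in these. Over the 9 adipocyte markers in the table the summed FPKM was 10.6 to 68.1 in *Ptpn6*+/mev and 9.36 to 92.4 in wild-type mice. *Ucp1* and *Acvr1c* were near 0 in all 6 mice, and *Sncg* did not follow the pattern. *Adig* was at 0 in wild-type replicate 1 and at 0.14 in wild-type replicate 2, and *Lep* was at 0.36 in *Ptpn6*+/mev replicate 2, so these low markers followed it only in part. *Fabp4* was also highest in the 3 mice with these markers and lowest in wild-type replicate 2, the mouse with the lowest sum of endothelial markers. The macrophage sum was lowest in that mouse too, at 177, although the macrophage marker *Cd14* was highest there, at 60.2. The part of adipocyte, endothelial or macrophage RNA in the levels of *Fabp4* and *Plin4* was not tested. *Cd36*, which adipocytes and endothelium also express, was highest in wild-type replicate 2, where the adipocyte and endothelial markers were low. The part of either cell type in the level of *Cd36* was not tested.

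**Figure D3:**
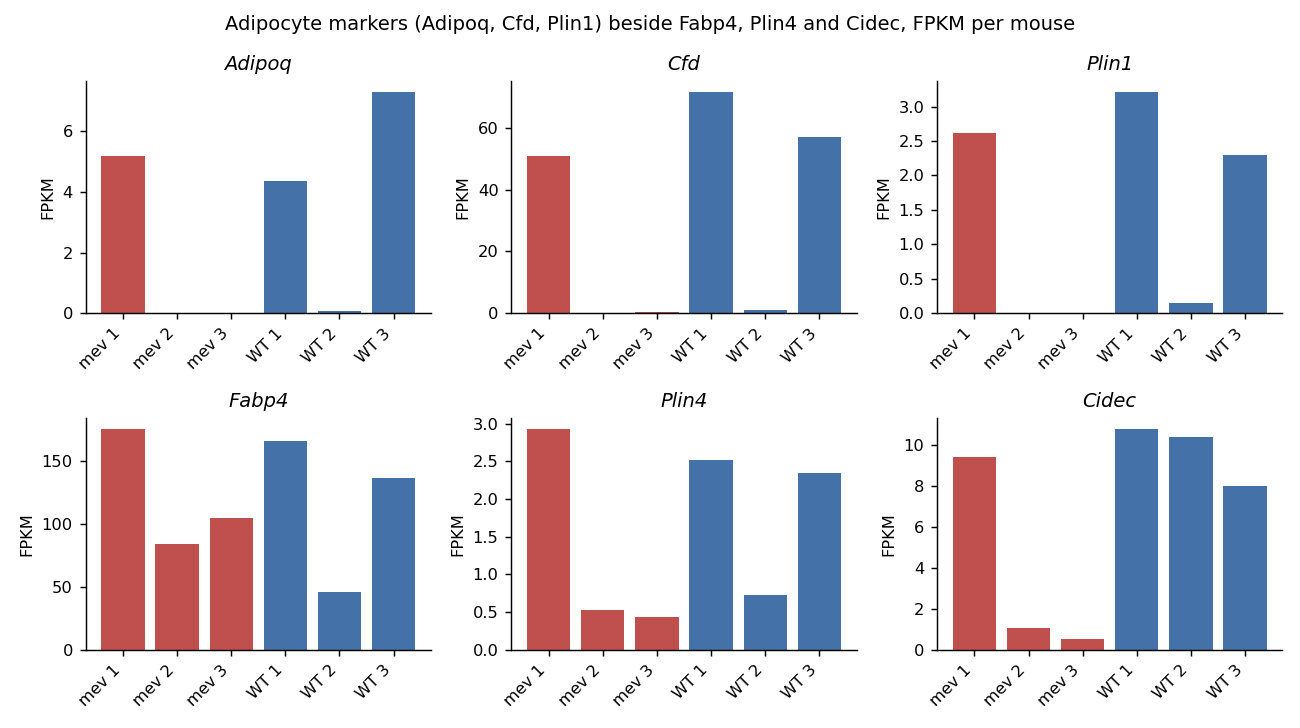
FPKM per mouse of the adipocyte markers *Adipoq*, *Cfd* and *Plin1*, and of *Fabp4*, *Plin4* and *Cidec*, with mev for *Ptpn6*+/mev and WT for wild-type. *Plin4* is high in the 3 mice with adipocyte markers, while *Cidec* is also high, at 10.4, in wild-type replicate 2, where *Adipoq* is at 0.07.

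*Pnpla2* (ENSMUSG00000025509, chr7:141455198-141460743, plus strand) encodes the lipase that starts droplet breakdown. Its FPKM was 63.7, 46.3 and 53.3 in *Ptpn6*+/mev mice and 60.9, 90.02 and 58.7 in wild-type mice. *Ptpn6*+/mev replicate 1 lay above wild-type replicates 1 and 3, so the groups overlapped. On the log2 scale the fold change was -0.46 (standard error 0.21), and -0.20 without wild-type replicate 2. The ratio of *Plin2* to *Pnpla2* FPKM in the same mouse was 7.72, 10.7 and 11.3 in *Ptpn6*+/mev mice and 14.2, 16.7 and 12.6 in wild-type mice, so the coat gene was lower relative to the lipase gene in all 3 *Ptpn6*+/mev mice. Of the 4 ratios computed, that of *Plin5* to *Plin2* overlapped between the groups, at 0.00189 to 0.00254 and 0.00188 to 0.00322, while that of *Cd36* to *Plin2* did not, at 0.0916 to 0.107 and 0.14 to 0.196.

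*Angptl4* (ENSMUSG00000002289, chr17:33773750-33781830, minus strand) encodes a secreted inhibitor of lipoprotein lipase and is a well-known PPAR target. Its FPKM was 76.0, 61.3 and 78.2 in *Ptpn6*+/mev mice and 65.9, 98.9 and 87.6 in wild-type mice. Wild-type replicate 1 was below 2 of the 3 *Ptpn6*+/mev mice, and the groups overlapped. The log2 fold change was -0.31 (standard error 0.17), and -0.14 without wild-type replicate 2.

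**Figure D4:**
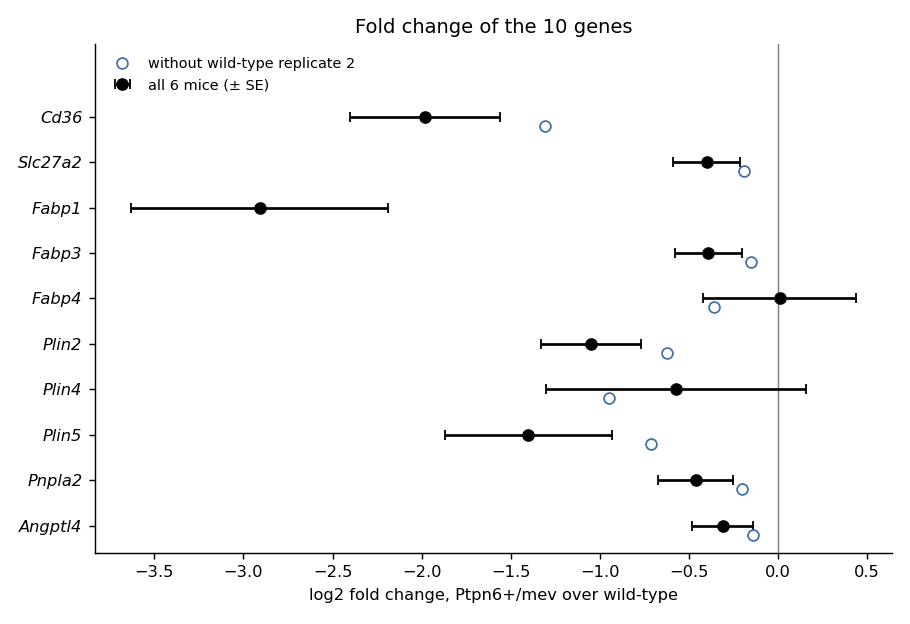
Log2 fold change (*Ptpn6*+/mev over wild-type) of the 10 genes from edgeR, with all 6 mice as black points ± standard error and without wild-type replicate 2 as open points. *Fabp1* is from the fit without a filter and has no open point; without that replicate *Cd36* remains the lowest of the other 9 at -1.31, and *Fabp4* moves from 0.01 to -0.36.

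By mean FPKM over the 6 mice the order was *Plin2* (783), *Slc27a2* (543), *Fabp4* (119), *Cd36* (116), *Angptl4* (78.0), *Pnpla2* (62.2), *Fabp3* (58.8), *Fabp1* (3.57), *Plin5* (1.98) and *Plin4* (1.58). The ranges over the mice of neighbours in this order overlapped at every step except those from *Slc27a2* to *Fabp4* and from *Fabp3* to *Fabp1*. *Cd36*, above *Angptl4* by the mean, was below it in all 3 *Ptpn6*+/mev mice. *Cd36* was above *Fabp4* in wild-type replicate 2 and, at 169 against 166, slightly so in wild-type replicate 1, and it was below *Fabp4* in wild-type replicate 3 and in all *Ptpn6*+/mev mice. Wild-type replicate 2 was the highest mouse for 8 of the 10 genes, all but *Plin4* and *Fabp4*, against 17.3% of tested genes. The summed FPKM of the 10 genes was 1497, 1204 and 1404 in *Ptpn6*+/mev mice and 1947, 2848 and 1700 in wild-type mice.

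The genes most like 3 of the members were sought among all tested genes by the root mean square distance between their log2 CPM profiles (counts scaled to library size, centred on each gene's mean) over the 6 libraries. Nearest to *Cd36* were *Pck1*, the rate-limiting enzyme of gluconeogenesis, *Mttp*, the microsomal triglyceride transfer protein, and *Cyp4a10*, a fatty acid omega-hydroxylase. Their distances were 0.152, 0.186 and 0.20, where the median gene lay at 1.06. Among the members the nearest to *Cd36* were *Plin5* at 0.431 and *Plin2* at 0.466, and the farthest *Fabp4* at 1.46 and *Plin4* at 1.44. Nearest to *Plin2* were *Lgals3bp* at 0.0995, *2810459M11Rik* at 0.129 and *Hspb6* at 0.134, against a median of 0.63. For *Angptl4*, which varied little, they were *Cbarp*, *Zfr2* and *Rassf3* at 0.0611 to 0.0767, against a median of 0.322. The likeness is one of counts: in FPKM *Zfr2* was at 2.76, 1.01 and 1.47 in *Ptpn6*+/mev mice and 1.01, 0.73 and 0.67 in wild-type mice, which does not follow *Angptl4*.

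Other genes of the pathway were taken from 5 lists, 88 genes in the table of which 76 were tested. None passed FDR 0.05 in the edgeR quasi-likelihood F-test, against 0.138% of all tested genes. At an unadjusted p under 0.05, 16 were lower and 4 higher in *Ptpn6*+/mev mice, where 6.71% and 5.53% of all tested genes were. The exact test and DESeq2 each called 8, all lower, against 1.78% and 1.88% of genes called lower. With wild-type replicate 2 left out the quasi-likelihood test called 6, of which 5 were lower, against 1.09% of genes called lower. The median log2 fold change of the 76 was -0.20, and 59 were below 0, against 50.5% of all tested genes. Leaving out wild-type replicate 2 moved the median of the acyl-CoA synthetases from -0.27 to 0.03, of lipolysis from -0.24 to -0.12 and of the PPAR receptors and partners from -0.08 to -0.14. Those of the uptake and carrier genes (-0.17 to -0.16) and of droplet coat and assembly (-0.20 in both) moved little.

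Among the 18 tested uptake and carrier genes, 4 were lower (6.71% of all genes) and 2 higher (5.53%) at an unadjusted p under 0.05. *Dbi*, which encodes the acyl-CoA binding protein and was the most abundant of the list, was measured at 1692 ± 31.2 FPKM (SD, n = 3) in *Ptpn6*+/mev and 1913 ± 140 (SD, n = 3) in wild-type mice. This gave -0.25 as its log2 fold change (FDR 0.347 in edgeR's quasi-likelihood test). *Lpl*, the lipoprotein lipase that *Angptl4* inhibits, was at 18.3 ± 2.83 and 23.8 ± 3.61 with overlapping groups. *Lmf1*, needed for the folding of lipoprotein lipase, had a log2 fold change of -0.28, and *Mfsd2a*, a lysolipid transporter, of -0.53. The higher genes were *Fabp7*, the brain-type FABP, with a log2 fold change of 1.09, and *Cav1*, the caveolin gene, with 0.24, and both had an FDR of 0.373 in edgeR's quasi-likelihood test. *Fabp7* was the farthest from 0 of the 6. *Got2* and *Slc27a4* overlapped between the groups at log2 fold changes of -0.18 and -0.10.

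Of the 14 tested acyl-CoA synthetases, 3 were lower at an unadjusted p under 0.05 (6.71% of all genes) and none higher (5.53%). They were *Acss2*, which activates acetate (log2 fold change -0.58), *Acsm1*, a medium-chain enzyme (-0.78), and *Acsf2*, also of the medium-chain kind (-0.96). The FDR of the 3 was 0.104, 0.150 and 0.162 in edgeR's quasi-likelihood test. The abundant members did not follow them: *Acsm2* stood at 952 ± 58.2 FPKM (SD, n = 3) against 867 ± 62.8 (SD, n = 3), and the long-chain enzyme *Acsl1* 46.9 ± 7.37 against 44.6 ± 2.43. *Acss1* and *Acsl5* overlapped as well, at log2 fold changes of -0.02 and 0.17, and *Acsf3* had -0.27. With wild-type replicate 2 left out the quasi-likelihood test called *Acsf2* lower and *Acsl5* higher, against 1.8% of genes called in either direction.

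Among the 19 tested genes of the droplet coat and of droplet assembly, 4 were lower and 1 higher at an unadjusted p under 0.05. Over all tested genes the shares were 6.71% and 5.53%. *Dgat2*, which makes triglyceride at the droplet, was at 42.9 ± 4.44 FPKM (SD, n = 3) in *Ptpn6*+/mev and 68.3 ± 10.8 (SD, n = 3) in wild-type mice. The change on the log2 scale was -0.75 (standard error 0.15, FDR 0.104 in edgeR's quasi-likelihood test), and no mouse of either group lay in the range of the other. Without overlap, 6.38% of all tested genes were lower. *Mogat1*, a monoacylglycerol acyltransferase, was at 58.5 ± 6.90 and 102 ± 24.9, and *Fitm1*, which partitions triglyceride into droplets, at 7.48 ± 0.63 and 15.7 ± 8.39, where the groups overlapped and wild-type replicate 2 was the highest at 24.45 (FDR 0.297). *Soat1*, which esterifies cholesterol, was higher, with a log2 fold change of 0.34 (FDR 0.262). The abundant *Aup1*, *Hsd17b11* and *Cideb* had log2 fold changes of 0.10, -0.02 and -0.18.

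*Cidec*, a droplet fusion protein of adipocytes and fatty liver, was singled out after its values were seen. Its FPKM was 9.39, 1.07 and 0.54 in *Ptpn6*+/mev mice and 10.8, 10.4 and 7.98 in wild-type mice. The *Ptpn6*+/mev mouse with adipocyte markers had a wild-type level, and the *Ptpn6*+/mev mice without them had about the lowest values of the series. Wild-type replicate 2 had as much *Cidec* as the other wild-type mice with *Adipoq* at 0.07. *Cidec* was called in the fit without *Ptpn6*+/mev replicate 1, as were 0.0303% of genes, and in none of the other fits.

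Of the 14 tested lipolysis genes, 4 were lower (6.71% of all genes) and 1 higher (5.53%) at an unadjusted p under 0.05. *G0s2*, whose protein inhibits the lipase encoded by *Pnpla2*, had an FPKM of 50.9, 50.03 and 48.8 in *Ptpn6*+/mev mice and 89.8, 165 and 70.4 in wild-type mice, for a log2 fold change of -1.21 (standard error 0.31, FDR 0.172 in edgeR's quasi-likelihood test). *Abhd5*, whose protein activates the same lipase, was higher at 22.6 ± 1.15 (SD, n = 3) against 18.3 ± 0.47 (SD, n = 3), with a log2 fold change of 0.24 and an FDR of 0.321. For both genes the groups did not overlap, while those of *Pnpla2* did. Over all tested genes 6.38% were lower without overlap, as *G0s2* was, and 14% higher, as *Abhd5* was. *Ces1d*, a triglyceride hydrolase, had a log2 fold change of -1.52 (FDR 0.0943), *Lpin1*, a phosphatidate phosphatase, of -0.63 and *Lipa*, the lysosomal acid lipase, of -0.38, while *Aadac* overlapped at -0.26.

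Of the 11 tested PPAR receptors and partners, 1 was lower at an unadjusted p under 0.05 (6.71% of all genes) and none higher (5.53%). This was *Ppara*, which had a log2 fold change of -0.81 (FDR 0.104 in edgeR's quasi-likelihood test) with groups that did not overlap. *Pparg*, at an FPKM of 1.72 ± 0.44 (SD, n = 3) against 0.97 ± 0.39 (SD, n = 3), had 0.71 (FDR 0.487), and its groups did not overlap either, with the *Ptpn6*+/mev mice higher. Over all tested genes 6.38% were lower without overlap, as *Ppara* was, and 14% higher, as *Pparg* was. *Ppard*, which encodes PPARδ, overlapped at -0.22. *Rxra*, *Rxrb*, *Ncor1* and *Ppargc1b* had log2 fold changes of -0.15, 0.04, -0.02 and -0.54, all with overlapping groups.

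In the KEGG PPAR signaling pathway, 76 genes other than the members were in the table and 55 were tested, 17 of them, *Ppara* included, already counted in the 5 lists. None passed FDR 0.05 in the edgeR quasi-likelihood F-test. At an unadjusted p under 0.05, 20 were lower and 2 higher, against 6.71% and 5.53% of all tested genes, and the median log2 fold change was -0.31. The exact test called 10 and DESeq2 6, all lower, against 1.78% and 1.88% of genes, and the quasi-likelihood F-test with wild-type replicate 2 left out called 9, of which 8 were lower, against 1.09%. *Acox2*, a peroxisomal oxidase, had a log2 fold change of -0.97, *Cyp4a12a* of -0.70 and *Pck1* of -1.88.

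**Figure D5:**
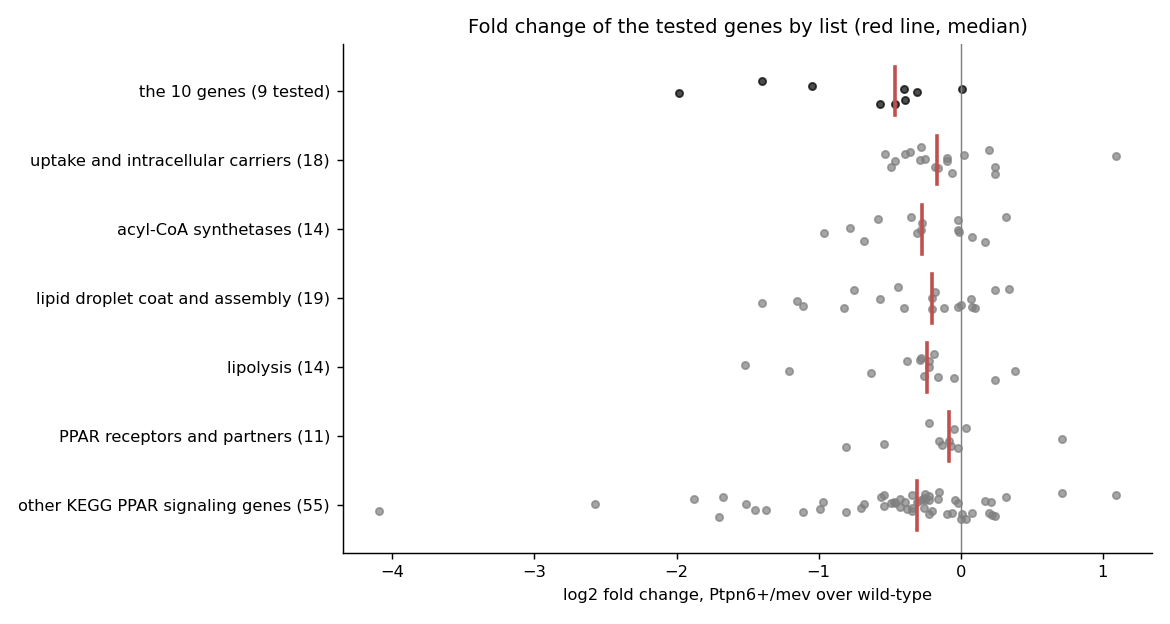
Log2 fold change (*Ptpn6*+/mev over wild-type) of every tested gene by list, with a red line at the median; the number tested stands beside each list, and vertical scatter only separates points. The medians lie between -0.46 for the members and -0.08 for the PPAR receptors and partners; with wild-type replicate 2 left out, that of the acyl-CoA synthetases turns from -0.27 to 0.03.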

How the data were processed

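Kidney mRNA of 6 mice was measured by RNA sequencing. The authors mapped reads with TopHat (GRCm38.p5) and used Cufflinks for expression; the submitters' processing notes also name Bowtie2 and RSEM, and the tool that made the counts is not given in the sources used here. For every gene and library the authors deposited its FPKM and an estimated count. Columns headed HE were read as the heterozygous *Ptpn6*+/mev mice and WT as wild-type, with the replicate numbers of the labels.

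Counts were rounded to whole numbers and tested in R 4.3.3 with edgeR 4.0.16 (scaling by TMM, filterByExpr with the group, quasi-likelihood F-test without covariates, Benjamini-Hochberg over 13036 genes). The standard error is the log2 fold change divided by the square root of F. Alternatives used DESeq2 1.42.0, limma 3.58.1 on log2 FPKM (pseudocount 1 or 0.1), edgeR's exact test, other normalizations and filters, a replicate block, and leaving out each mouse. On simulated counts for this comparison (13036 genes, 200 of them changed), the quasi-likelihood test recovered 72% of 2-fold and 91% of 4-fold changes, and 4.68% of its calls were false, against 15.0% for the exact test and 15.1% for DESeq2. The simulated counts were drawn for each gene on its own. No simulated mouse stood apart as wild-type replicate 2 did, so these rates need not hold for the real libraries. The members and lists were chosen with earlier results of these data known. The genes named beside the members were, in each list, those at an FDR under 0.05, up to 4 of the highest FPKM and up to 4 of the smallest p, apart from *Cidec*, *Fabp7*, *Cav1*, *Ppard* and the single markers, chosen after their values were seen; some genes that this rule names are not reported here. Of the 92 symbols on the lists around the members, 88 genes were found. Gene positions are from GENCODE M21 (GRCm38), matched by identifier. Summaries and figures used Python 3.11.15 and matplotlib 3.10.9.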

Additional observations from a re-analysis of the deposited data

How the results depend on the processing

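The number of genes at an FDR under 0.05 depended on the test: it was 18 in edgeR's quasi-likelihood test, 390 in the exact test, 388 in DESeq2, 52 without the filter on low counts, and 1 with the replicate number as a block; with 1 mouse left out in turn it ranged from 1 to 237. Of the members, 0 were called in the quasi-likelihood test, 2 in the exact test and 2 in DESeq2, and 0 to 2 with 1 mouse left out. Of the other uptake and lipid droplet genes the numbers were 0, 8 and 8, and 0 to 6 with 1 mouse left out. Of the other KEGG PPAR signaling genes they were 0, 10 and 6, with 1 (*Acox2*) without the filter and 0 to 9 with 1 mouse left out. The cause of these differences was not tested. The members whose groups did not overlap were 4, all lower, where 6.38% of all tested genes were lower without overlap. With all 6 mice 4 were also apart in CPM. With 1 mouse left out they were 4 to 7, the 7 being without *Ptpn6*+/mev replicate 1, which left 2 mice in that group. Smaller groups come apart more readily, and the share of all genes was not computed for them, so nothing is read from that range.

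The median log2 fold change of the members lay between -0.80 and -0.34 in all 15 alternatives. Each of *Cd36*, *Plin2*, *Plin4*, *Plin5*, *Fabp3*, *Slc27a2*, *Angptl4* and *Pnpla2* kept a value below 0 in all 15, and *Fabp1* in the 4 that fitted it besides its own. The sign of *Fabp4* changed in 2. No label says that the replicate numbers pair the mice, and which mice shared a litter is not given in the sources used here. Deviations from the group means of same-numbered mice had correlations across genes of -0.14, -0.18 and -0.13. Those of differently numbered mice were -0.01 to 0.16. With the number as a block 0 members, 0 of the other uptake and lipid droplet genes and 0 of the other KEGG PPAR signaling genes were called, and the median of the members was -0.43. Depth limits *Fabp1*, with 4 to 6 counts in *Ptpn6*+/mev mice, and *Plin5*, with 19 to 26.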
